A study of Mus musculus with 12 samples.

Results

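Wnt signalling at the cell surface is carried by 39 genes that are described here as 1 set: 19 Wnt ligands, 2 genes for making and exporting them (Porcn and Wls), 10 Frizzled receptors, 2 LRP co-receptors, 4 other Wnt receptors and 2 Kremens. The members were taken by symbol from 23598 rows of an expression table of the mouse cochlea. Every symbol was found, and for Ror1, which has 2 rows, the row with the higher mean was kept.

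The study measured RNA from cochleae of mice of postnatal day 7 (apical plus middle turns), each sample being a pool of 6 or more. There were 3 samples in each of 4 groups: β-catenin OE together with Notch1 KO (called the double group below), β-catenin OE (overexpression) alone, Notch1 KO (knockout) alone, and Control. The stated subject was the division of supporting cells and the formation of hair cells after changes to Wnt and Notch signalling in the living animal. The labels give no allele, Cre driver, inducing agent or strain, so what the 4 groups share beyond tissue and age is not stated, nor which cells carried the changes. Nor do they say whether the samples of a group were separate pools, so the spread that the p-values rest on may be partly technical.

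Wnt ligands are secreted proteins that Porcn modifies with a lipid and Wls carries to the cell surface. In the β-catenin branch a ligand joins a Frizzled to Lrp5 or Lrp6, which stabilises β-catenin and lets it act with TCF/LEF factors on target genes. In the planar cell polarity branch, which orients hair cells in the cochlea, ligands act through Frizzleds together with Ror, Ryk or Ptk7 receptors and do not need β-catenin.

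The promoters of 4 members are shown because they are among the 5 genes whose difference between the double group and Control held with samples 2 and 3 of a group averaged, a setting described further on. Each line gives the 250 bases before the start in RefSeq (GRCm38.p6), read 5′ to 3′ on the gene's strand. Capitals mark CTTTG, or its reverse complement CAAAG, which is the core of the sequence bound by TCF/LEF factors. The Wnt6 window is chr1:74771642-74771891 on the plus strand. The other windows lie on the minus strand, at chr11:103749822-103750071 for Wnt9b, chr13:53286125-53286374 for Ror2 and chr17:46629505-46629754 for Ptk7.
Wnt6: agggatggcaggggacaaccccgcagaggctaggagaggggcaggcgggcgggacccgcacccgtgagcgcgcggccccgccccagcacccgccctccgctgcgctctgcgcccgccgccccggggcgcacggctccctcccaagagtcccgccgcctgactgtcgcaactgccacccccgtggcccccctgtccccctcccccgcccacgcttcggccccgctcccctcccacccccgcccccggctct
Wnt9b: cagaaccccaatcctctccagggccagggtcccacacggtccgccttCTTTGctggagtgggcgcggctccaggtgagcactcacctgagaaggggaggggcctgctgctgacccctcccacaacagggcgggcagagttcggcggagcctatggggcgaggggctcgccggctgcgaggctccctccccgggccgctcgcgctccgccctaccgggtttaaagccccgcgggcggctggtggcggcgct
Ror2: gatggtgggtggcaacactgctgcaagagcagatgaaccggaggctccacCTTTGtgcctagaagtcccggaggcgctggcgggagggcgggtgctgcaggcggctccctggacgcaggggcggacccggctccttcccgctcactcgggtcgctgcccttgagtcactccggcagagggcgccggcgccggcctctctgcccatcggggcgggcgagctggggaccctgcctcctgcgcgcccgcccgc
Ptk7: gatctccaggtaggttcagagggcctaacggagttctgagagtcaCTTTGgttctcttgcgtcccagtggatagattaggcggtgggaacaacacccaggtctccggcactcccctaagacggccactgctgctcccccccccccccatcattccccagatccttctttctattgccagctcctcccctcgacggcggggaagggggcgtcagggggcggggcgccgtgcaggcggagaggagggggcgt
The Wnt6 window held no CTTTG on either strand. The other windows held 1 each, which began at -203 relative to the start in Wnt9b, -200 in Ror2 and -205 in Ptk7. Over all 32851 promoters of this length in RefSeq, 48.6% held CTTTG on either strand, as did 14 of the 30 promoters found for 27 members. The longer CTTTGAT or ATCAAAG, which contains the same core, was in 3.21% of all promoters and in 2 of these 30, those of Wnt5b and Wnt11. The 4 windows were rich in G and C, with 79.6% in Wnt6, 72.0% in Wnt9b, 73.2% in Ror2 and 64.0% in Ptk7, against a median of 52.4% over all promoters.

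Levels are FPKM, sequenced fragments scaled to transcript length and to the mapped fragments of the library, so genes can be compared per length. Notch1 was at 8.62, 5.70 and 5.77 FPKM in the double group, 37.6, 15.7 and 16.7 in β-catenin OE samples, 9.16, 7.63 and 7.56 in Notch1 KO samples and 24.3, 14.7 and 16.6 in Control, below every Control sample in each sample of the 2 groups labelled as knockout. By limma the fall of Notch1 passed in the double group (-1.39, adjusted p = 0.0113) and not in Notch1 KO (-1.11, adjusted p = 0.160), where it passed with the sample number as a block (adjusted p = 0.0156). Total Ctnnb1 FPKM passed the test in none of the comparisons. Of 13 markers of cochlear tissue, 11 were in the table, and their summed FPKM was 2353 to 2808 in the double group, 3942 to 6978 in β-catenin OE samples, 4327 to 5967 in Notch1 KO samples and 4774 to 5375 in Control. Most of each sum was Tectb, at 1622 to 1749 FPKM in the double group, 3166 to 5164 in β-catenin OE, 3292 to 4674 in Notch1 KO and 3646 to 3806 in Control. Of the 11 markers 4 were called lower in the double group than in Control and 7 were not called, where 6.64% of all genes were lower. The sample numbered 1 stood apart in every group: over 5889 genes the spread of log2 differences was 0.293 to 0.446 against samples 2 and 3 and 0.0756 to 0.133 between samples 2 and 3 (robust SD). Xist, made from the inactive X chromosome of females, was at 19.5, 0.0239 and 0.0146 FPKM in the double group and at 20.8 or more in all other samples, so double samples 2 and 3 stood apart in this measure of sex, whose part in the results was not tested.

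The cochlea held a wide set of Wnt ligand and receptor transcripts. In Control, 27 of the 39 members averaged at least 1 FPKM, among them 8 ligands and all 10 Frizzleds. Wnt5a, a ligand known for planar cell polarity, was the most abundant ligand in all 12 samples, with 40.3% to 56.0% of the summed ligand FPKM. The number of ligands that reached 1 FPKM was 11 in each double sample, 8, 11 and 11 in β-catenin OE samples, 8, 8 and 9 in Notch1 KO samples and 8 in each Control sample. Wnt6, Wnt10a, Wnt9b and Wnt16 together made up 18.0%, 22.8% and 22.3% of the summed ligand FPKM in the double group and 2.39%, 9.35% and 10.9% in β-catenin OE. Their share was 3.15%, 2.96% and 2.92% in Notch1 KO and 1.64%, 2.77% and 2.93% in Control. The ligands summed here are those that rose in the double group against Control in the tests further on. A high share in the double group therefore follows from the choice of ligands and is a description only. The double group lay above all other samples in this share, and β-catenin OE sample 1 lay within the range of Control.

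**Figure D1:**
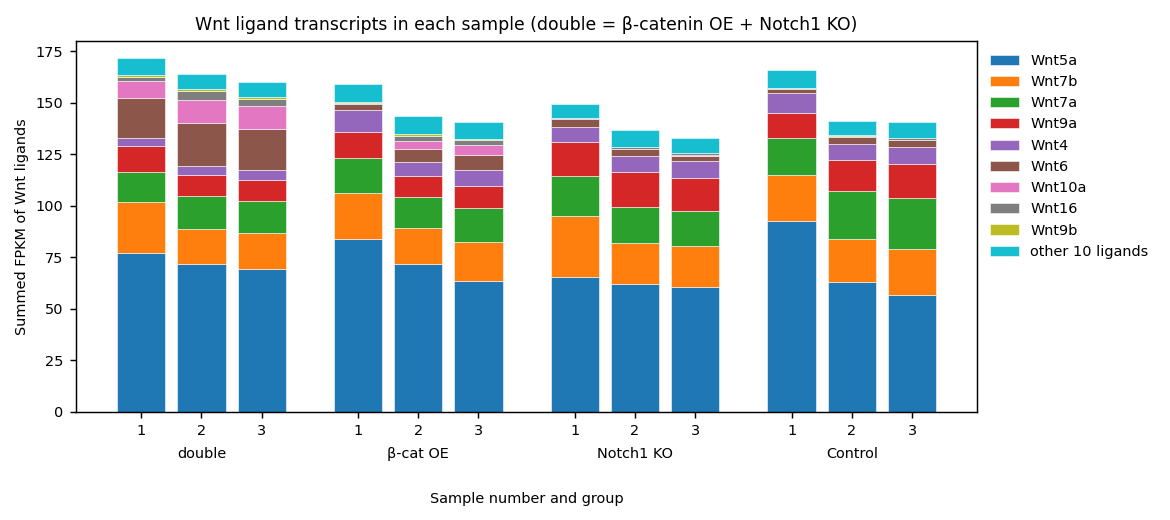
Summed FPKM of the 19 Wnt ligands in each of the 12 samples, stacked by ligand, with the sample number and group on the x axis. Wnt5a is the largest block in every bar, and Wnt6 and Wnt10a are visible in the double group.

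The order of ligand levels in Control was Wnt5a, then Wnt7b and Wnt7a, whose ranges overlapped, then Wnt9a, Wnt4 and a group of 3 with overlapping neighbours, Wnt5b, Wnt2b and Wnt6. Wnt16, Wnt2, Wnt11, Wnt3, Wnt8b and Wnt3a followed below 1 FPKM, each overlapping the next, and then Wnt9b, Wnt10a, Wnt10b, Wnt1 and Wnt8a, which also overlapped their neighbours. Among Frizzleds, Fzd9, Fzd7, Fzd6 and Fzd1 led, each overlapping the next. Fzd10, Fzd4 and Fzd2 followed with overlapping ranges, then Fzd8 and Fzd3, which also overlapped, and Fzd5 was lowest.

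Tests across genes covered 14581 rows, of which 32 were members. Wnt1, Wnt3, Wnt3a, Wnt8a, Wnt8b, Wnt10b and Kremen2 were too low to be tested. Wnt1 was listed at 0 in every sample, and the other untested genes never passed 0.619 FPKM. Wnt9b and Wnt10a reached the level needed for testing only through double and β-catenin OE samples, and Wnt2 only through 2 Control samples and 1 Notch1 KO sample. These 3 members were tested because of the groups where they were high. All their calls, against Control, against Notch1 KO and in every setting, are therefore a description only. So is any lack of overlap between their samples, and they stay in the counts below on that footing. In all that follows, differences are on the log2(FPKM + 0.5) scale with their standard error (n = 3 per group), a scale that compresses changes of low genes, and adjusted p is limma's after Benjamini-Hochberg adjustment.

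The double group differed from Control in 14 of the 32 tested members, 9 of them higher and 5 lower. Over all genes tested, 12.5% passed in this comparison, 5.88% higher and 6.64% lower. The members that rose were the ligands Wnt10a, Wnt6, Wnt9b and Wnt16, the receptors Ror2, Ptk7 and Ror1, and Fzd6 and Fzd1. Those that fell were the ligands Wnt4, Wnt2 and Wnt7a and the receptors Fzd9 and Fzd8. The median difference of the 32 members was 0.07, and that of all genes -0.02.

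In β-catenin OE, Ror2 and Ptk7 rose relative to Control and no member fell, where 2.24% of all genes passed, 1.36% higher and 0.878% lower. In Notch1 KO no member passed by limma relative to Control, where 0.857% of all genes did, 0.535% higher and 0.322% lower. There 4 of the 32 members had an unadjusted p under 0.05 (Ror2, Fzd9, Kremen1 and Fzd4), as had 1206 of all 14581 genes. These comparisons share the Control samples and are given side by side, not as independent results. Same-numbered samples varied together in the comparisons with Control and in that of the double group with Notch1 KO. Samples 2 and 3 of different groups also did, at correlations of 0.0358 to 0.322, so a pairing by number is not established. With the sample number as a block, 6 members passed in β-catenin OE relative to Control, which adds Wnt11, Fzd8, Fzd4 and Fzd6, and 2 in Notch1 KO, Fzd9 and Kremen1, where 635 and 237 of all 14581 genes passed. In the double group 17 members then passed relative to Control, with 2934 genes, and 17 relative to Notch1 KO, with 2290 genes. Without Control sample 1, Kremen1 and Wnt7a were called in β-catenin OE as well, 4 members in all, where 505 of all 14526 genes were higher and 394 lower. Set against β-catenin OE, the double group had 3 members that rose and 2 that fell, where 2.72% of all genes passed, 1.22% higher and 1.5% lower. Set against Notch1 KO, the double group had 11 that rose and 3 that fell, where 10.1% of all genes passed, 4.91% higher and 5.21% lower. The number of members called in the double group relative to Control was 8 with double sample 2 left out and 9 with double sample 3 left out. Over all genes, 515 and 544 were then higher and 588 and 622 lower, of 14532 and 14525 tested. Relative to Notch1 KO the number of members was 9 with double sample 2, Notch1 KO sample 2 or Notch1 KO sample 3 left out. Over all genes, 450 to 463 were then higher and 323 to 380 lower. Relative to β-catenin OE the number of members was 1 with any 1 of the double samples left out, where 32 to 93 genes were higher and 70 to 137 lower. It was 2 with sample 2 of β-catenin OE left out (68 genes higher and 101 lower). It was 3 with its sample 1 or 3, Notch1 KO sample 2 or 3 or Control sample 2 left out, where 100 to 164 genes were higher and 113 to 192 lower.

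**Figure D2:**
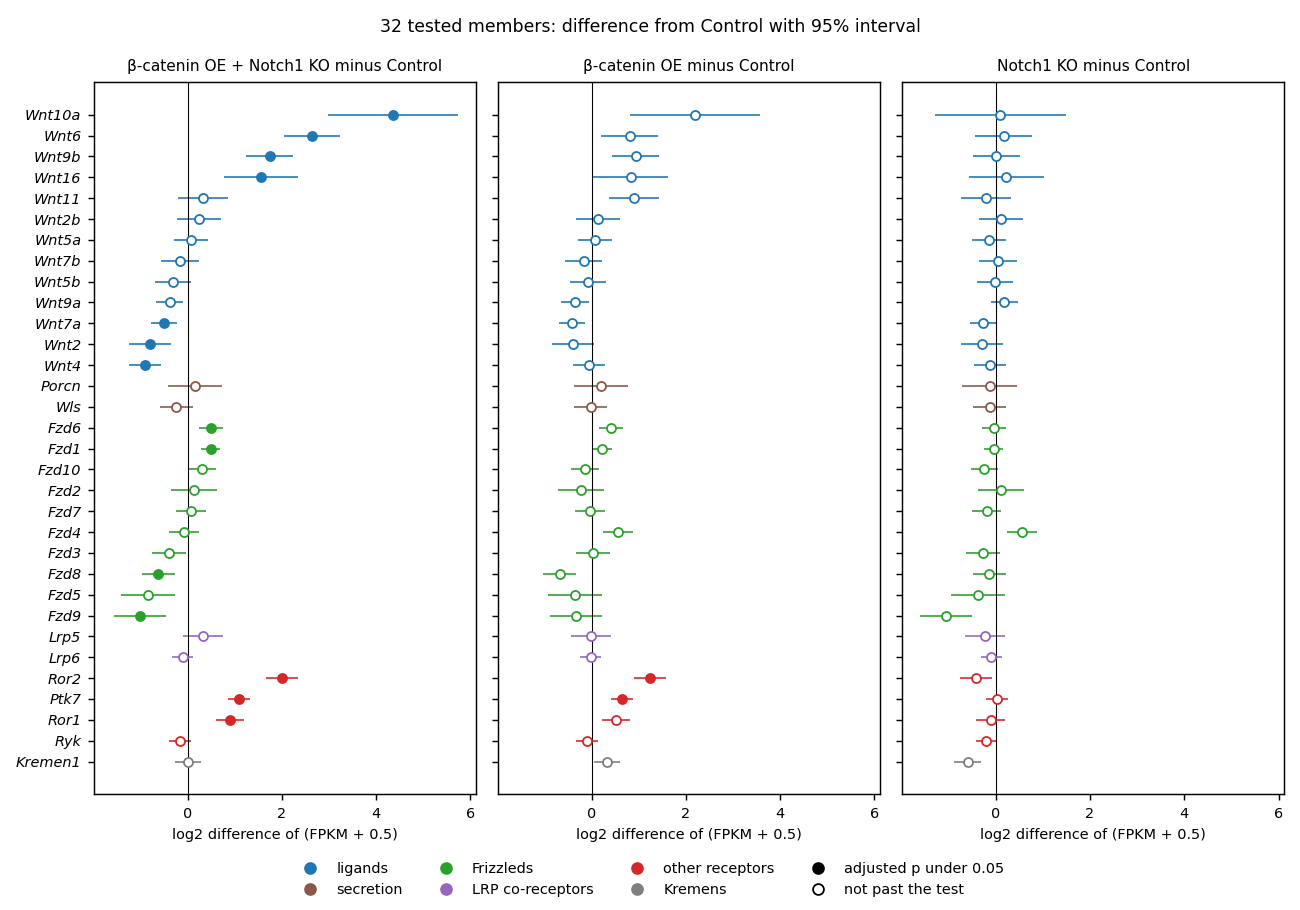
Difference from Control of the 32 tested members on the log2(FPKM + 0.5) scale in the double group (left), β-catenin OE (middle) and Notch1 KO (right), with 95% intervals. Filled points passed the test: 14 in the double group, 2 in β-catenin OE and none in Notch1 KO.

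In 11 members every double sample lay above every Control sample and in 8 every double sample lay below, where 15.9% and 17.5% of all genes did so. In β-catenin OE 9 members lay wholly above Control and 3 wholly below (7.89% and 8.63% of all genes), and in Notch1 KO 1 lay above and 5 below (7.43% and 8.64%). Relative to β-catenin OE, 8 members of the double group lay wholly above and 7 below (12.6% and 16.2%), and relative to Notch1 KO 14 above and 8 below (16.1% and 18.1%). Samples 2 and 3 of a group were so much closer to each other than to sample 1 that all tests were repeated with those 2 averaged into 1 value. Of 34 calls among members that could be repeated, 8 then held: Wnt10a, Wnt9b, Wnt6, Ror2 and Ptk7 in the double group against Control, and Wnt6, Ror2 and Ptk7 in the double group against Notch1 KO. The other 26 ended in that setting, which is not repeated gene by gene below, and Wnt2 was too low to be tested in it. The calls that only the block added were absent in it too. Among the 8, those of Wnt10a and Wnt9b are a description only, as said above. In the double group, the difference from Control among the samples numbered 1 and that among samples 2 and 3 had the same sign in 26 of 32 members. This held for 18 of 32 in β-catenin OE and 19 of 32 in Notch1 KO, and the share over all genes was not computed.

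Wnt6, a ligand known from embryonic ectoderm, rose in the double group against each of the other groups. It was at 19.2, 20.8 and 20.2 FPKM in the double group, 2.99, 6.17 and 7.68 in β-catenin OE samples, 3.95, 3.06 and 2.69 in Notch1 KO samples and 2.10, 3.03 and 3.40 in Control. All 3 double samples lay above every other sample, and the ranges of β-catenin OE and Control overlapped through β-catenin OE sample 1. Wnt6 rose in the double group relative to Control (2.64 ± 0.27, adjusted p = 0.000113), against β-catenin OE (1.84 ± 0.27, adjusted p = 0.00610) and against Notch1 KO (2.48 ± 0.27, adjusted p = 0.000212). The difference of β-catenin OE from Control was 0.80 ± 0.27, adjusted p = 0.200. In bulk tissue like this, more cells that make a transcript and more transcript in each cell cannot be told apart.

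Wnt10a, known for roles in teeth, hair follicles and skin, was at or near 0 in Notch1 KO and Control. It was at 8.28, 10.9 and 10.96 FPKM in the double group and 0.0515, 4.12 and 4.46 in β-catenin OE samples, and was listed at 0, 0.0806 and 0.0609 in Notch1 KO samples and 0, 0.0316 and 0 in Control. The double samples were above all others, while β-catenin OE was split between sample 1, near Control, and samples 2 and 3. The difference of the double group from Control was 4.36 ± 0.63, adjusted p = 0.000995, and it passed in every setting tried, with values between 3.44 (a pseudocount of 1) and 6.52 (a pseudocount of 0.1), so its size is set by the pseudocount. It also passed against Notch1 KO (4.26 ± 0.63, adjusted p = 0.00139), but not against β-catenin OE (2.17 ± 0.63, adjusted p = 0.0998), and β-catenin OE against Control did not pass (2.19 ± 0.63, adjusted p = 0.118).

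Wnt9b, known for its part in kidney tubule formation, showed the same order at a lower level. It was at 1.36, 1.08 and 1.23 FPKM in the double group and 0.150, 0.719 and 0.708 in β-catenin OE samples, and at 0.0332, 0 and 0.0243 in Notch1 KO samples and 0.0106, 0.0253 and 0.00869 in Control. Every double sample lay above every β-catenin OE sample, and every β-catenin OE sample lay above Notch1 KO and Control. Wnt9b rose in the double group relative to Control (1.74 ± 0.23, adjusted p = 0.000515) and against Notch1 KO (1.73 ± 0.23, adjusted p = 0.000641). Its difference from Control was 1.13 with a pseudocount of 1 and 3.52 with a pseudocount of 0.1, so that its size too is set by the pseudocount. The differences from β-catenin OE (0.80 ± 0.23, adjusted p = 0.0932) and of β-catenin OE from Control (0.94 ± 0.23, adjusted p = 0.0613) did not pass.

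Wnt16, a ligand known from bone and joints, was at 1.93, 4.44 and 3.25 FPKM in the double group and 0.609, 2.44 and 2.52 in β-catenin OE samples. It was at 0.728, 0.915 and 1.11 in Notch1 KO samples and 0.606, 0.826 and 0.699 in Control. The double samples were all above Notch1 KO and Control, and overlapped the β-catenin OE range. The rise passed against Control (1.56 ± 0.36, adjusted p = 0.0156) and against Notch1 KO (1.33 ± 0.36, adjusted p = 0.0379). The first call ended when double sample 2 (1.32) or double sample 3 (1.52) was left out, and the second when double sample 2 or 3 or Notch1 KO sample 1, 2 or 3 or Control sample 2 or 3 was left out (1.10 to 1.43) and with no filter on low values (1.33).

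The members include 4 pairs of neighbouring genes in GENCODE M21 (GRCm38). Wnt6 (chr1:74771892-74785322, plus strand) and Wnt10a (chr1:74791516-74804179, plus strand) follow each other with 6.19 kb between them, and both rose in the double group. Wnt9b (chr11:103727364-103749821, minus strand) lies 24.3 kb from Wnt3 on the opposite strand, and Wnt3 was at 0.174 to 0.313 FPKM in the double group, 0.242 to 0.619 in β-catenin OE samples, 0.191 to 0.352 in Notch1 KO samples and 0.142 to 0.468 in Control. The other pairs were Wnt3a with Wnt9a, 16.2 kb apart, and Wnt10b with Wnt1, 11.7 kb apart. Wnt3a, Wnt10b and Wnt1 were at most 0.0889 FPKM in any sample.

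**Figure D3:**
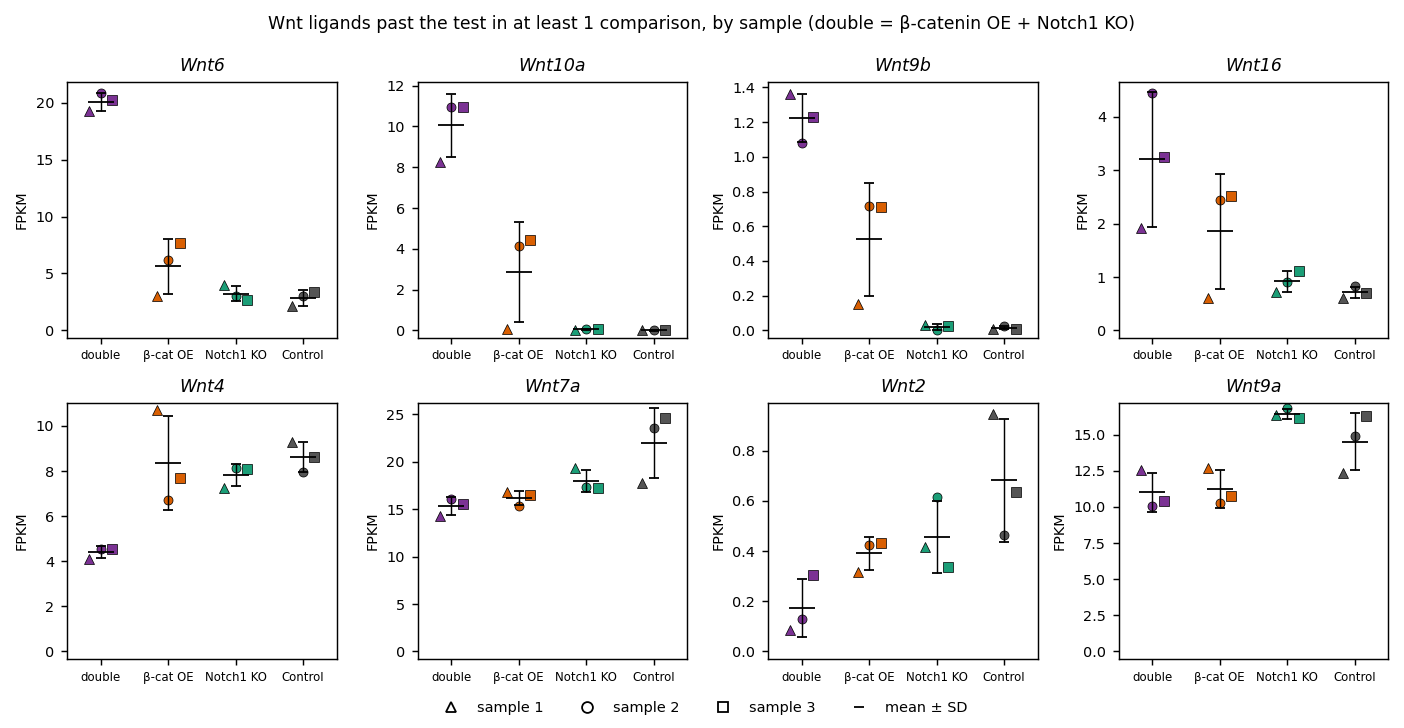
FPKM of the 8 ligands that passed the test in at least 1 comparison, 1 panel per gene on its own linear axis. Points are samples, marked by sample number, and bars show the mean ± SD of each group (n = 3). The double group is highest for Wnt6, Wnt10a, Wnt9b and Wnt16 and lowest for Wnt4, Wnt7a and Wnt2.

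The 4 ligands that rose shared a split within β-catenin OE. The difference of β-catenin OE sample 1 from Control sample 1 was 0.14 for Wnt10a, 0.35 for Wnt9b, 0.00 for Wnt16 and 0.43 for Wnt6. The difference of β-catenin OE samples 2 and 3 from Control samples 2 and 3 was 3.21 for Wnt10a, 1.23 for Wnt9b, 1.24 for Wnt16 and 0.99 for Wnt6. In the double group the difference for sample 1 and that for samples 2 and 3 were 4.13 and 4.47 for Wnt10a, 1.87 and 1.68 for Wnt9b, 1.13 and 1.77 for Wnt16, and 2.92 and 2.50 for Wnt6. Without β-catenin OE sample 1, 9 members passed in β-catenin OE against Control: Wnt10a (3.23), Wnt16 (1.3), Ror2 (1.28), Wnt9b (1.24), Wnt6 (1.16), Wnt11 (1.09), Ptk7 (0.74) and Ror1 (0.65) were higher and Fzd8 (-0.75) lower. These 9 members were called with 1 sample fewer, in a setting where 542 of all 14541 genes were called higher and 333 lower. Without β-catenin OE sample 2 or sample 3 the only member called was Ror2. Over all genes 82 were then higher in either setting, and 44 and 48 were lower.

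Other genes split the same way in β-catenin OE, and their part in the split was not tested. The Wnt antagonist Dkk4 was at 56.4, 93.1 and 86.7 FPKM in the double group, 1.18, 66.1 and 63.2 in β-catenin OE samples, 0, 0 and 0.197 in Notch1 KO samples and 0, 0.0509 and 0 in Control. The summed FPKM of 15 genes of the G2 and M phases of the cell cycle was 87.2, 65.9 and 68.8 in the double group, 16.9, 89.5 and 89.2 in β-catenin OE samples, 27.3, 30.4 and 31.3 in Notch1 KO samples and 25.2, 20.2 and 20.3 in Control. In the double group 8 of these 15 genes were higher than in Control, and in β-catenin OE none was called, where 5.88% and 1.36% of all genes were higher. Lgr5, a target of β-catenin and a marker of supporting cells, did not follow the split. It was at 50.1, 33.01 and 32.3 FPKM in β-catenin OE samples and 8.07, 7.48 and 7.71 in Control. In β-catenin OE sample 1 Nkd1 was at 169 FPKM and Sp5 at 28.3, against at most 97.8 and 6.60 in Control. Axin2 and Lgr6, counted with the feedback and target genes below, did split. Axin2 was at 26.5, 44.97 and 47.3 FPKM in β-catenin OE samples and 20.3, 24.01 and 24.9 in Control. Lgr6 was at 11.4, 22.3 and 22.95 FPKM in β-catenin OE samples and 10.4, 4.75 and 5.26 in Control.

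**Figure D4:**
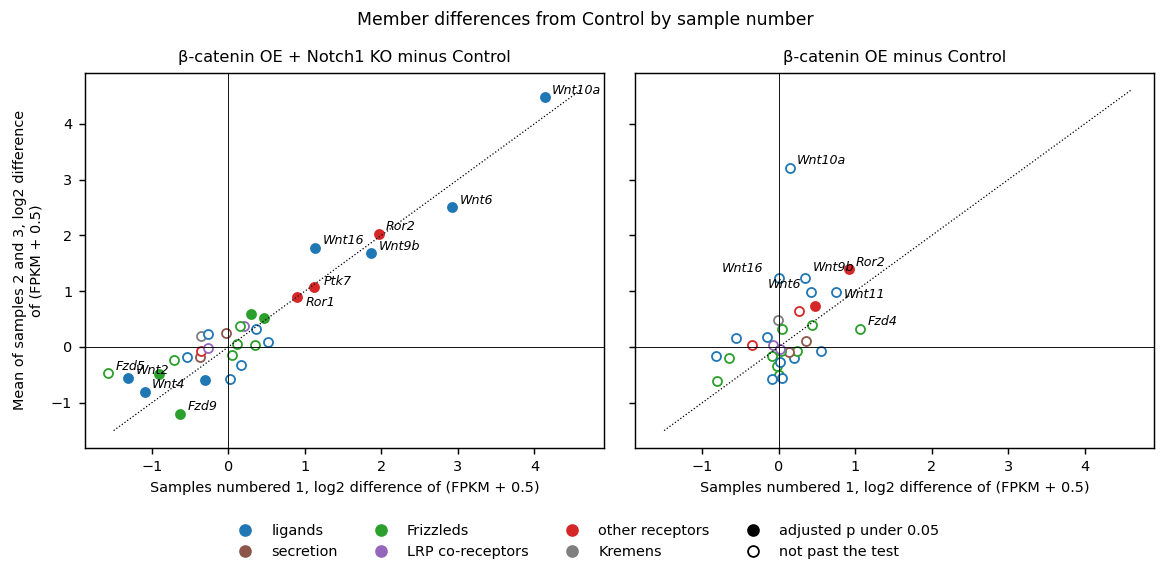
Difference from Control of the 32 tested members in the samples numbered 1 (x axis) against the mean of samples 2 and 3 (y axis), both on the log2(FPKM + 0.5) scale, in the double group (left) and β-catenin OE (right). Filled points passed the test over all samples and the dotted line marks equal values. Wnt10a lies near the line in the double group (4.13 and 4.47) and far above it in β-catenin OE (0.14 and 3.21).

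Among the ligands that fell, Wnt4, known from kidney and gonad development, was lower in the double group than in each of the other groups. It was at 4.08, 4.55 and 4.54 FPKM in the double group, 10.7, 6.71 and 7.70 in β-catenin OE samples, 7.24, 8.13 and 8.09 in Notch1 KO samples and 9.30, 7.95 and 8.64 in Control. All 3 double samples lay below every other sample. Wnt4 fell against Control (-0.90 ± 0.15, adjusted p = 0.00282), against β-catenin OE (-0.83 ± 0.15, adjusted p = 0.0172) and against Notch1 KO (-0.77 ± 0.15, adjusted p = 0.00877). The call against β-catenin OE ended when double sample 1 (-0.79) or double sample 2 (-0.86) or double sample 3 (-0.86) was left out and with only the groups compared in the model (-0.83).

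Wnt7a, a ligand expressed in the developing organ of Corti, was at 14.3, 16.1 and 15.6 FPKM in the double group and 16.8, 15.3 and 16.5 in β-catenin OE samples. It was at 19.3, 17.3 and 17.2 in Notch1 KO samples and 17.8, 23.5 and 24.6 in Control. The double and β-catenin OE samples lay below every Control sample, and the double group passed (-0.50 ± 0.12, adjusted p = 0.0237) while β-catenin OE did not (-0.42 ± 0.12, adjusted p = 0.135). The double group's call ended when double sample 1, 2 or 3 or Control sample 2 or 3 was left out (-0.53 to -0.41) and with only the groups compared in the model (-0.50).

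Wnt2, known for its part in lung development, was near the lowest level that was tested, and no double sample reached that level. It was at 0.0845, 0.131 and 0.303 FPKM in the double group, 0.315, 0.426 and 0.433 in β-catenin OE samples, 0.415, 0.616 and 0.335 in Notch1 KO samples and 0.946, 0.464 and 0.636 in Control. The double samples lay below all others. The difference from Control was -0.81 ± 0.20, adjusted p = 0.0237, between -1.55 with a pseudocount of 0.1 and -0.51 with a pseudocount of 1, and the call ended when double sample 1 (-0.71) or double sample 2 (-0.77) was left out. Wnt9a, known from joint formation, was at 12.6, 10.05 and 10.4 FPKM in the double group, 12.7, 10.2 and 10.7 in β-catenin OE samples, 16.4, 16.8 and 16.1 in Notch1 KO samples and 12.4, 14.9 and 16.3 in Control. It was called only in the double group against Notch1 KO (-0.56 ± 0.13, adjusted p = 0.0185), where the samples did not overlap, and that call ended when double sample 2 or 3 or Notch1 KO sample 2 or 3 was left out (-0.58 to -0.51).

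Markers of supporting cells, and some of other cell types, fell in the same comparison as these ligands. Of 12 such markers 8 were lower in the double group than in Control and 1, Lgr5, was higher. In β-catenin OE 4 were lower and 1 higher than in Control, and in Notch1 KO 3 were lower and none higher. Their summed FPKM was 667 to 959 in the double group, 1150.0 to 1339.6 in β-catenin OE samples, 903 to 1268 in Notch1 KO samples and 1327 to 1809 in Control. The list holds Hes5, Hey2 and Lfng of the Notch pathway as well as Lgr5, so it does not measure how many supporting cells there were. Sox2, also on the list, differed from Control by 0.04 in Notch1 KO (adjusted p = 0.987) and by -0.81 in the double group (adjusted p = 0.0150). Of 12 hair cell markers 1 was higher in the double group than in Control (2 with the block), 3 were higher in Notch1 KO (5 with the block) and none was called in β-catenin OE. Lower in the double group than in Control were also 4 of 12 mesenchyme and fibroblast markers and 3 of 8 stria vascularis markers. So were 2 of 10 bone and cartilage markers, and no marker of these 3 lists was higher. No Schwann and glial or macrophage marker was called there. Over all genes, 5.88% were higher and 6.64% lower than in Control in the double group. These shares were 1.36% and 0.878% in β-catenin OE, and 0.535% and 0.322% in Notch1 KO. The summed FPKM of 10 Schwann and glial markers was 519, 670.4 and 644 in the double group, 1774, 1687 and 1683 in β-catenin OE samples, 668, 973 and 959 in Notch1 KO samples and 2931, 538 and 566 in Control. That of 10 bone and cartilage markers was 1423, 917 and 895 in the double group, 1938, 1005 and 1088 in β-catenin OE samples, 1465, 1174 and 1135 in Notch1 KO samples and 2555, 1001 and 1128 in Control. Sample 1 was thus highest for bone and cartilage in every group, and the Schwann and glial sum was high in β-catenin OE as a whole and in Control sample 1. The part of cell makeup in the members' differences was not tested.

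The 3 ligands with the highest levels in Control were Wnt5a, Wnt7b and Wnt7a. Wnt5a was at 76.9, 71.6 and 69.2 FPKM in the double group, 83.7, 71.8 and 63.3 in β-catenin OE samples, 65.6, 61.7 and 60.5 in Notch1 KO samples and 92.8, 62.8 and 56.7 in Control. Every double sample lay above every Notch1 KO sample, and the other groups overlapped. No comparison of Wnt5a passed, and the difference of the double group from Control was 0.07, with a 95% interval of -0.29 to 0.43. Wnt7b was at 25.1, 17.1 and 17.5 FPKM in the double group, 22.6, 17.2 and 18.998 in β-catenin OE samples, 29.6, 20.3 and 19.7 in Notch1 KO samples and 22.3, 21.1 and 22.5 in Control. The groups overlapped, and the interval of the double group's difference from Control was -0.56 to 0.24.

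Wnt2b, Wnt5b and Wnt11 also passed no comparison. Wnt2b ranged over 3.20 to 4.77 FPKM in the double group and 2.86 to 3.17 in Control, with no overlap (0.24 ± 0.21, adjusted p = 0.528). Wnt5b ranged over 2.16 to 2.68 FPKM in the double group and 2.91 to 3.37 in Control, also with no overlap (-0.31 ± 0.18, adjusted p = 0.306). Wnt11, known for cell movements of gastrulation, was at 0.544, 0.784 and 0.794 FPKM in the double group, 0.869, 1.73 and 1.37 in β-catenin OE samples, 0.200, 0.521 and 0.300 in Notch1 KO samples and 0.313, 0.363 and 0.749 in Control. All 3 β-catenin OE samples of Wnt11 were above every other sample, with a difference from Control of 0.90 ± 0.24, adjusted p = 0.0863, which passed with the sample number as a block (adjusted p = 0.0337).

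The genes for making and exporting Wnts were expressed in every group with no call. Wls, the carrier, was among the most abundant members at 112, 158 and 162 FPKM in the double group, 158, 172 and 168 in β-catenin OE samples, 133, 165 and 165 in Notch1 KO samples and 145, 188 and 176 in Control. Porcn, the acyltransferase, which lies on the X chromosome, was at 9.32, 7.996 and 6.82 FPKM in the double group, 12.4, 7.36 and 6.09 in β-catenin OE samples, 8.47, 5.76 and 5.52 in Notch1 KO samples and 9.53, 5.90 and 6.45 in Control. The groups overlapped in both genes. The intervals of the double group's difference from Control were -0.59 to 0.10 for Wls and -0.42 to 0.72 for Porcn.

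Of the 10 Frizzleds, 2 rose and 2 fell in the double group against Control and 6 did not pass, with a median difference of -0.01, where 5.88% of all genes rose and 6.64% fell. With the sample number as a block, Fzd10 and Fzd5 also passed.

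Fzd1, which acts in the β-catenin branch, was at 46.2, 49.8 and 50.9 FPKM in the double group, 38.7, 40.9 and 42.8 in β-catenin OE samples, 33.2, 34.6 and 33.1 in Notch1 KO samples and 37.7, 31.5 and 35.2 in Control. The double samples lay above all others, and the rise passed against Control (0.49 ± 0.09, adjusted p = 0.00497) and against Notch1 KO (0.53 ± 0.09, adjusted p = 0.00354). Fzd6, which with Fzd3 orients hair cells in mice, was at 48.3, 56.7 and 60.4 FPKM in the double group, 47.6, 55.03 and 52.5 in β-catenin OE samples, 35.3, 40.5 and 37.8 in Notch1 KO samples and 35.02, 42.5 and 39.2 in Control. Every double and β-catenin OE sample of Fzd6 lay above every Notch1 KO and Control sample. The rise of Fzd6 passed in the double group relative to Control (0.50 ± 0.11, adjusted p = 0.0149) and against Notch1 KO (0.53 ± 0.11, adjusted p = 0.0123), and the difference of β-catenin OE from Control was 0.41 ± 0.11, adjusted p = 0.106 (adjusted p = 0.0107 with the block). The call against Control ended when double sample 2 (0.47) or double sample 3 (0.43) was left out and with only the groups compared in the model (0.50), and that against Notch1 KO when double sample 2 (0.51) or double sample 3 (0.46) was left out.

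Fzd10 was at 31.8, 31.2 and 32.1 FPKM in the double group, 26.7, 20.4 and 22.5 in β-catenin OE samples, 25.5, 20.2 and 19.3 in Notch1 KO samples and 28.5, 24.01 and 24.3 in Control. The double samples lay above all others within a narrow range, and the rise passed only against Notch1 KO (0.55 ± 0.13, adjusted p = 0.0211), a call that ended when double sample 1, 2 or 3 or Notch1 KO sample 2 or 3 was left out (0.47 to 0.56). The difference from Control was 0.31 ± 0.13, adjusted p = 0.162 (adjusted p = 0.0362 with the block).

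Fzd9, a marker of a subset of supporting cells in the newborn mouse cochlea, was the most abundant Frizzled in Control. It was at 30.7, 17.96 and 18.4 FPKM in the double group, 47.8, 29.7 and 29.999 in β-catenin OE samples, 28.6, 17.6 and 17.8 in Notch1 KO samples and 47.7, 40.7 and 44.1 in Control. The double and Notch1 KO samples lay below every Control sample, and β-catenin OE overlapped Control. The fall passed in the double group (-1.01 ± 0.25, adjusted p = 0.0227) but not in Notch1 KO (-1.06 ± 0.25, adjusted p = 0.0874), where it passed with the sample number as a block (adjusted p = 0.00474). The double group's call ended when double sample 2 or 3 or Control sample 1 or 3 was left out (-1.01 to -0.88), and in Notch1 KO Fzd9 passed without β-catenin OE sample 1 (-1.06, adjusted p = 0.0490).

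Fzd8 was lower in the groups with β-catenin OE. It was at 6.03, 5.88 and 6.29 FPKM in the double group, 6.47, 5.14 and 5.92 in β-catenin OE samples, 10.8, 7.38 and 8.29 in Notch1 KO samples and 11.7, 8.77 and 8.66 in Control. Every double and β-catenin OE sample lay below every Notch1 KO and Control sample. The fall passed in the double group (-0.62 ± 0.16, adjusted p = 0.0261) and not in β-catenin OE (-0.68 ± 0.16, adjusted p = 0.0549), where it passed with the block (adjusted p = 0.0129). With the block Fzd8 was also lower in the double group than in Notch1 KO (-0.49, adjusted p = 0.0198). The double group's call against Control ended when double sample 1, 2 or 3 or Control sample 1 was left out (-0.65 to -0.49).

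Fzd4, the receptor of Norrin, was higher in each single change than in the double group. It was at 17.9, 21.6 and 22.4 FPKM in the double group, 36.7, 30.1 and 31.2 in β-catenin OE samples, 30.9, 32.9 and 33.6 in Notch1 KO samples and 17.3, 23.7 and 25.1 in Control. The double samples overlapped Control and lay below every sample of the single changes. Fzd4 is known for its part in blood vessels, and 10 endothelial and pericyte markers summed to 383 to 500.4 FPKM in the double group, 262 to 334 in β-catenin OE samples, 225 to 293 in Notch1 KO samples and 264.2 to 300.5 in Control. In the double group 1 of these 10 markers was higher than in Control and 2 were lower, with a median difference of -0.30. Over all genes, 5.88% were higher and 6.64% lower. The sum thus did not follow the median marker. The markers' part in the Fzd4 differences was not tested. Fzd4 was lower in the double group than in β-catenin OE (-0.65 ± 0.15, adjusted p = 0.0401) and Notch1 KO (-0.65 ± 0.15, adjusted p = 0.0154). Neither single change passed against Control, with 0.57 ± 0.15, adjusted p = 0.0759 in β-catenin OE and 0.56 ± 0.15, adjusted p = 0.134 in Notch1 KO. With the block β-catenin OE passed (adjusted p = 0.0459). The call against β-catenin OE ended when double sample 1, 2 or 3 or β-catenin OE sample 1, 2 or 3 or Notch1 KO sample 2 or 3 or Control sample 2 was left out (-0.71 to -0.56), with no filter on low values (-0.65) and with only the groups compared in the model (-0.65), and that against Notch1 KO when double sample 1 (-0.55) or Notch1 KO sample 2 (-0.64) or Notch1 KO sample 3 (-0.62) was left out.

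Fzd7, the second most abundant Frizzled in Control, was at 49.3, 39.2 and 40.6 FPKM in the double group, 46.4, 36.4 and 36.996 in β-catenin OE samples, 41.6, 33.9 and 31.8 in Notch1 KO samples and 45.5, 38.7 and 38.3 in Control. All groups overlapped, and the double group's difference from Control had an interval of -0.24 to 0.38. With the block Fzd7 was higher in the double group than in Notch1 KO (0.26, adjusted p = 0.0187). Fzd2, Fzd3 and Fzd5 passed no comparison without the block. Fzd2 ranged over 18.98 to 26.3 FPKM in the double group and 18.4 to 20.6 in Control. Fzd3 ranged over 5.44 to 6.63 FPKM in the double group and 7.42 to 9.20 in Control, and Fzd5 over 0.717 to 0.802 FPKM in the double group and 1.27 to 3.11 in Control. Every double sample of Fzd3 and Fzd5 lay below every Control sample, with differences of -0.40 ± 0.17, adjusted p = 0.150 for Fzd3 and -0.84 ± 0.26, adjusted p = 0.0582 for Fzd5 (adjusted p = 0.0297 with the block).

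**Figure D5:**
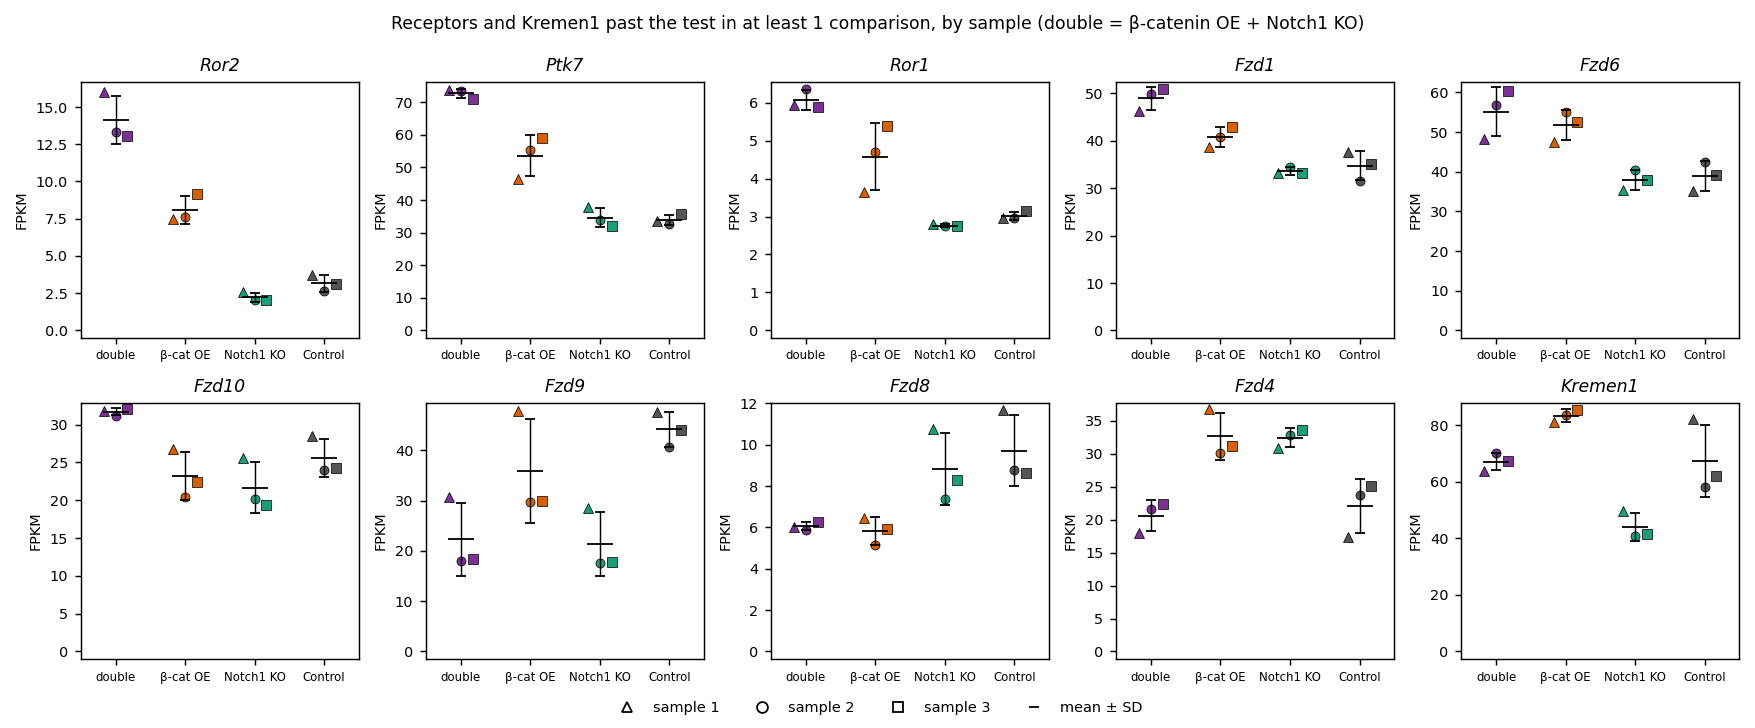
FPKM of the 9 receptors and Kremen1 that passed the test in at least 1 comparison, 1 panel per gene on its own linear axis. Points are samples, marked by sample number, and bars show the mean ± SD of each group (n = 3). Ror2, Ptk7 and Ror1 are highest in the double group and next in β-catenin OE.

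The LRP co-receptors of the β-catenin branch passed no comparison without the block. Lrp5 was at 22.01, 17.9 and 16.8 FPKM in the double group, 17.95, 13.2 and 13.8 in β-catenin OE samples, 16.1, 11.4 and 11.3 in Notch1 KO samples and 18.98, 12.4 and 14.1 in Control. Lrp6 was at 17.9, 18.5 and 19.3 FPKM in the double group, 21.8, 19.3 and 18.1 in β-catenin OE samples, 17.7, 19.04 and 19.2 in Notch1 KO samples and 21.7, 19.8 and 18.4 in Control. The double and Control samples overlapped in both genes, with intervals for the difference of -0.10 to 0.74 for Lrp5 and -0.32 to 0.12 for Lrp6. With the sample number as a block Lrp5 was higher in the double group than in Control (0.32, adjusted p = 0.0240) and Notch1 KO (0.54, adjusted p = 0.00232).

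Of the 4 receptors outside the Frizzled and LRP families, Ror2, Ptk7 and Ror1 rose in the double group, and all 3 calls against Control and against Notch1 KO held whichever sample was left out. With samples 2 and 3 averaged, the calls of Ror2 and Ptk7 in these comparisons held and those of Ror1 ended. Ror2, a receptor tyrosine kinase for Wnt5a, was at 15.99, 13.3 and 13.04 FPKM in the double group, 7.46, 7.61 and 9.15 in β-catenin OE samples, 2.59, 2.01 and 2.05 in Notch1 KO samples and 3.73, 2.62 and 3.13 in Control. The 4 groups did not overlap, with the double group highest, β-catenin OE next and Notch1 KO lowest. Ror2 rose in the double group relative to Control (2.0 ± 0.15, adjusted p = 1.59e-05), β-catenin OE (0.77 ± 0.15, adjusted p = 0.0257) and Notch1 KO (2.43 ± 0.15, adjusted p = 4.04e-06), and in β-catenin OE against Control (1.23 ± 0.15, adjusted p = 0.00161). The difference of Notch1 KO from Control was -0.43 ± 0.15, adjusted p = 0.384. The difference of β-catenin OE from Control was 0.91 among the samples numbered 1 and 1.39 among samples 2 and 3. The call against β-catenin OE ended when double sample 1, 2 or 3 or β-catenin OE sample 1 or 2 was left out (0.68 to 0.82).

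Ptk7, a pseudokinase that orients hair cells in mice, was the most abundant of these receptors in the double group. It was at 73.6, 73.5 and 71.1 FPKM in the double group, 46.6, 55.2 and 58.9 in β-catenin OE samples, 37.7, 33.8 and 32.2 in Notch1 KO samples and 33.6, 32.7 and 35.7 in Control. The double samples lay above every β-catenin OE sample and these above every Notch1 KO and Control sample. Ptk7 rose in the double group relative to Control (1.09 ± 0.10, adjusted p = 6.78e-05), β-catenin OE (0.44 ± 0.10, adjusted p = 0.0482) and Notch1 KO (1.07 ± 0.10, adjusted p = 0.000104), and in β-catenin OE against Control (0.64 ± 0.10, adjusted p = 0.00828). The call against β-catenin OE ended when double sample 1, 2 or 3 or β-catenin OE sample 1, 2 or 3 or Notch1 KO sample 2 or 3 or Control sample 2 or 3 was left out (0.35 to 0.52), with a pseudocount of 0.1 (0.45) and with only the groups compared in the model (0.44). The call of β-catenin OE against Control ended when β-catenin OE sample 2 (0.62) or β-catenin OE sample 3 (0.57) was left out and with only the groups compared in the model (0.64).

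Ror1, the relative of Ror2, was at 5.95, 6.37 and 5.89 FPKM in the double group, 3.65, 4.70 and 5.39 in β-catenin OE samples, 2.79, 2.75 and 2.74 in Notch1 KO samples and 2.96, 2.96 and 3.13 in Control. It had the same order of groups as Ror2 with no overlap. Ror1 rose in the double group relative to Control (0.90 ± 0.14, adjusted p = 0.00137) and Notch1 KO (1.01 ± 0.14, adjusted p = 0.000802), and β-catenin OE against Control did not pass (0.51 ± 0.14, adjusted p = 0.0894). Ryk, a receptor with an inactive kinase domain, passed no comparison, at 31.4 to 36.1 FPKM in the double group, 31.5 to 37.9 in β-catenin OE samples, 31.6 to 34.3 in Notch1 KO samples and 34.8 to 40.2 in Control.

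Kremen1, a receptor for the Dkk antagonists that removes Lrp6 from the surface, was lowest in Notch1 KO. It was at 63.8, 69.97 and 67.4 FPKM in the double group, 81.1, 83.6 and 85.3 in β-catenin OE samples, 49.6, 40.96 and 41.5 in Notch1 KO samples and 81.96, 58.1 and 61.9 in Control. Every Notch1 KO sample lay below every sample of the other groups. Kremen1 was higher in the double group than in Notch1 KO (0.61 ± 0.13, adjusted p = 0.0117), a call that ended when double sample 2 (0.58) or Notch1 KO sample 2 (0.56) or Notch1 KO sample 3 (0.57) was left out. The difference of Notch1 KO from Control was -0.60 ± 0.13, adjusted p = 0.0596, which passed with the block (adjusted p = 0.0393). Kremen2 was at most 0.136 FPKM in any sample.

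Whether the Notch1 KO effect differed with and without β-catenin OE was tested directly, as the difference of the double group from β-catenin OE minus that of Notch1 KO from Control. No member passed by limma, where 0.0206% of all genes did, 0.0137% higher and 0.00686% lower. An unadjusted p under 0.05 was found in 10 of the 32 members and in 1226 of all 14581 genes. The members nearest to the threshold were Fzd4 (-1.21 ± 0.21, adjusted p = 0.0654), Ror2 (1.20 ± 0.22, adjusted p = 0.0900) and Wnt6 (1.67 ± 0.39, adjusted p = 0.156). Fzd4 passed without Control sample 1 (-1.05, adjusted p = 0.0366).

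Of 15 tested feedback and target genes of the pathway, 12 rose and 1 fell in the double group against Control, and 6 rose and 0 fell in β-catenin OE. Over all genes, 5.88% rose and 6.64% fell in the double group, and 1.36% rose and 0.878% fell in β-catenin OE. The median difference of these 15 genes was 1.43 in the double group and 0.74 in β-catenin OE. Lgr5 rose in the double group (2.62 ± 0.15, adjusted p = 2.15e-06) and in β-catenin OE (2.21 ± 0.15, adjusted p = 2.34e-05). Nkd1, a feedback inhibitor, was at 234, 271 and 268 FPKM in the double group, 169, 187 and 202 in β-catenin OE samples, 66.8, 70.97 and 65.5 in Notch1 KO samples and 97.8, 74.2 and 86.01 in Control, with no overlap between Control and either group with β-catenin OE.

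Sp5, a transcription factor that β-catenin induces, was the 1 gene of that list that passed in the double group relative to β-catenin OE (1.44 ± 0.28, adjusted p = 0.0234). It was at 161, 84.6 and 87.5 FPKM in the double group, 28.3, 45.4 and 45.4 in β-catenin OE samples, 8.33, 4.58 and 4.65 in Notch1 KO samples and 5.83, 5.71 and 6.60 in Control. In Notch1 KO against Control, 1 of the 15 fell, Notum, an enzyme that removes the lipid of Wnts (-0.68 ± 0.12, adjusted p = 0.0242). Against Notch1 KO the double group had 12 higher and 0 lower. Over all genes, 0.322% fell in Notch1 KO against Control. In the double group 1.22% rose relative to β-catenin OE, and 4.91% rose and 5.21% fell relative to Notch1 KO.

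Of 20 tested components inside the cell, 3 rose and 1 fell in the double group against Control, where 5.88% of all genes rose and 6.64% fell. None passed in β-catenin OE (1 rose with the block) or Notch1 KO against Control. The transcription factor Tcf7 (1.45 ± 0.17, adjusted p = 0.000254) and the kinase Csnk1e (0.66 ± 0.10, adjusted p = 0.00116) rose, and Apc, part of the complex that degrades β-catenin, fell (-0.62 ± 0.16, adjusted p = 0.0285). Against β-catenin OE, 0 rose and 1 fell, Apc (-0.72 ± 0.16, adjusted p = 0.0411), and against Notch1 KO 3 rose and 0 fell. Over all genes, 1.22% rose and 1.5% fell against β-catenin OE, and 4.91% rose and 5.21% fell against Notch1 KO.

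Of 14 tested secreted modulators of Wnt signalling, 3 rose and 4 fell in the double group against Control, where 5.88% of all genes rose and 6.64% fell. None passed in β-catenin OE (1 fell with the block) or Notch1 KO against Control. The antagonist Dkk4 is counted among the 15 feedback and target genes. It rose in the double group (7.23, adjusted p = 0.00104) and in β-catenin OE (5.22, adjusted p = 0.0262), on values near 0 in Control, so that the sizes are set by the pseudocount. The antagonists Dkk1 (2.26 ± 0.37, adjusted p = 0.00206) and Wif1 (1.68 ± 0.26, adjusted p = 0.00137) rose, and the antagonist Sfrp1 fell (-1.11 ± 0.15, adjusted p = 0.000589). Wif1 was at 137, 223 and 223 FPKM in the double group, 67.5, 94.3 and 93.3 in β-catenin OE samples, 32.6, 39.3 and 38.5 in Notch1 KO samples and 89.01, 49.01 and 47.03 in Control, so that all double samples were above all others. Relative to β-catenin OE 2 of the 14 rose and 2 fell, with Wif1 (1.17 ± 0.26, adjusted p = 0.0369) and Dkk2 (0.74 ± 0.14, adjusted p = 0.0167), another antagonist, higher and Sfrp1 (-0.66 ± 0.15, adjusted p = 0.0401) lower. Against Notch1 KO 3 rose and 2 fell. Over all genes, 1.22% rose and 1.5% fell relative to β-catenin OE, and 4.91% rose and 5.21% fell relative to Notch1 KO.

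Of 13 tested intracellular and membrane genes of planar cell polarity, 2 rose, 2 fell and 9 did not pass in the double group against Control, where 5.88% of all genes rose and 6.64% fell. Their median difference was -0.01, and 1 rose and 0 fell in β-catenin OE, where 1.36% of all genes rose and 0.878% fell. In Notch1 KO none passed, and Prickle2 did with the block (-0.54, adjusted p = 0.0433). Daam1, a formin that links the pathway to actin, rose in the double group (1.42 ± 0.20, adjusted p = 0.000730) and in β-catenin OE (1.02 ± 0.20, adjusted p = 0.0199). Prickle2 (-0.43 ± 0.11, adjusted p = 0.0267), a core polarity protein, and Daam2 (-0.74 ± 0.21, adjusted p = 0.0381) were lower in the double group. Relative to β-catenin OE none passed by limma, with 2 at an unadjusted p under 0.05, as had 2653 of all 14581 genes. Against Notch1 KO Daam1 alone rose (1.03 ± 0.20, adjusted p = 0.00622), where 4.91% of all genes rose, joined by Scrib with the block (0.36, adjusted p = 0.0352).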

How the data were processed

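RNA of 12 cochlear samples was analysed from 1 table that the authors deposited, holding FPKM values and the authors' p-values for 3 comparisons. Per the submitters' processing notes the build was mm10 and the tools were Cufflinks 2.2.1 with Cuffdiff, TopHat2 2.0.10 with Bowtie2 2.2.1, Trimmomatic 0.23 and CASAVA 1.8, with no role stated. The sources used here name no annotation, filter or scaling between libraries.

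Rows that reached 0.5 FPKM in 3 or more samples were tested on log2(FPKM + 0.5) with limma 3.58.1 (R 4.3.3). The model held the mean of each of the 4 groups, was fitted to the 12 samples together, and used empirical Bayes with a trend on the mean. Two-sided p-values were adjusted by Benjamini-Hochberg over all 14581 tested rows of a comparison, at a threshold of 0.05. FPKM values are no counts, so no count test was run. The scripts were tested on simulated data.

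Members called in any comparison are given with all their values, as are the 3 most abundant ligands and Frizzleds, the LRP co-receptors, Porcn and Wls. Pathway lists are given by counts, with at most 3 genes of smallest p in a comparison. The members and all lists were chosen with earlier results of these data known. Other settings were pseudocounts of 0.1 and 1, no filter, median scaling, the sample number as a block, samples 2 and 3 averaged or alone, the groups of a comparison alone, and each sample left out.

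Gene positions are from GENCODE M21 (GRCm38, which is mm10) and promoters from RefSeq (GRCm38.p6). Depth was read from low values of genes with 1 transcript as steps of whole fragments. In the samples numbered 2 and 3, 78.2% to 82.5% of such values lay within 0.1 of a whole number, and in those numbered 1, 28.7% to 42.2%. The depths found for samples 2 and 3 were 18500000 to 26800000 fragments, and those of the samples numbered 1 are unknown. They assume no further scaling between libraries. Samples 2 and 3 of a group differed by 1.58 to 6.29 times the counting variance, which does not tell separate pools from repeat libraries of 1 pool, and they were kept separate because the labels list them as samples.

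The labels number the samples 1 to 3 in each group without saying that a number is shared. Deviations from the group means correlated between same-numbered samples at 0.187 to 0.459 in the single changes against Control, 0.190 to 0.324 in the double group against Control and 0.285 to 0.470 against Notch1 KO, all over 0.1, so a fit with the sample number as a block is given beside the results it changes. Between the double group and β-catenin OE the lowest was 0.0635, so the block is not used for that comparison. The block keeps samples 2 and 3 of a group as separate values, so it does not treat their closeness. No member call that only the block added was present with samples 2 and 3 averaged. Samples numbered 2 correlated with those numbered 3 of another group at 0.0358 to 0.322.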

Additional observations from a re-analysis of the deposited data

How the results depend on the processing

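No call among members reversed in any setting, and 8 of 35 were kept in every setting that gave a value, while samples 2 and 3 averaged ended 26 of 34. With samples 2 and 3 averaged, members called were 0 in β-catenin OE against Control, 5 in the double group against Control, 0 against β-catenin OE and 3 against Notch1 KO. Genes called were then 10 for β-catenin OE against Control, 0 for Notch1 KO, 243, 0 and 161 for those comparisons of the double group and 0 for the interaction. With samples 2 and 3 alone, members called were 19 for β-catenin OE, 7 for Notch1 KO, 23 and 14 for the double group against Control and β-catenin OE, and 13 for the interaction. Genes called were 5658 for β-catenin OE, 1717 for Notch1 KO, 6081, 4261 and 6155 for the double group against Control, β-catenin OE and Notch1 KO, and 2794 for the interaction. With the groups of a comparison alone, β-catenin OE gave 1 member and 65 genes, Notch1 KO 7 genes, and the double group against β-catenin OE 2 members and 245 genes. Median scaling gave 4 members in β-catenin OE, with 210 genes higher and 132 lower. The interaction gave 1 gene with a pseudocount of 0.1 and 7 with no filter. The cause of these shifts was not tested, apart from the fewer samples or values that some settings use.

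Leaving out 1 sample at a time, members called ranged over 1 to 9 in β-catenin OE (genes 126 to 899), 0 to 1 in Notch1 KO (14 to 213), 8 to 15 in the double group against Control (1103 to 2505), 1 to 5 against β-catenin OE (102 to 1023), 9 to 15 against Notch1 KO (785 to 2065) and 0 to 1 in the interaction (0 to 65). The count of 27 members of at least 1 FPKM in Control was 27 in each, and 29 and 26 at limits of 0.5 and 2 FPKM.

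The replicate block, which takes the sample number as a pairing, gave 6 members for β-catenin OE, 2 for Notch1 KO (Fzd9 and Kremen1) and 2 for the interaction (Fzd4 and Ror2). Genes called with it were 635 for β-catenin OE, 237 for Notch1 KO, 2934, 826 and 2290 in the double group against Control, β-catenin OE and Notch1 KO, and 53 in the interaction. Among members it ended no call in the comparisons with Control or with Notch1 KO, and the calls it adds there are given beside the results. For the double group against β-catenin OE and the interaction, where the samples share only a number (correlations down to 0.0635), members called were 7 and 2. Of 36 pairings of a sample with another group 29 were closest at its own number, a hint from the data and not from the design. Without per-sample counts the counting error of single FPKM values is not known for the samples numbered 1, and members below 1 FPKM are measured least precisely.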

Other observations

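The second Ror1 row of the table, which was not used above, held 0.5, 0.592 and 0.715 FPKM in the double group, 0.215, 0.504 and 0.408 in β-catenin OE samples, 0.215, 0.175 and 0.528 in Notch1 KO samples and 0.0675, 0.205 and 0.282 in Control.

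In the authors' deposited table the lowest p-value is 5e-05. It stood beside 7 members for the double group against Control (Wnt4, Wnt6, Wnt16, Fzd5, Ror1, Ror2 and Ptk7), 2 for β-catenin OE (Ror2 and Ptk7) and 0 for Notch1 KO. For Wnt10a the authors' deposited table gave 0.1758 both for the double group and for β-catenin OE.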
